A study of Mus musculus with 20 samples.

Results

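The 48 genes described here belong to 10 developmental families, namely Pax, Dlx, Irx, Lhx, Nkx, En, Emx, Otx, Cdx and the sine oculis homeobox genes (Six2, Six3, Six4 and Six6), and were taken by name from a fixed list, out of 21938 protein-coding genes of the GENCODE M21 annotation. The Hox clusters were not among them. All 48 were found in the annotation and none was dropped by a filter. The label homeobox was checked against what is known of the proteins: Pax genes are defined by a paired domain, and Pax1 and Pax9 lack a homeodomain while Pax2, Pax5 and Pax8 keep only part of one. Pax3, Pax4, Pax6, Pax7 and all members of the other 9 families encode a complete homeodomain.

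Homeobox and Pax genes encode DNA-binding proteins that set up body regions and organs in the embryo, and most are silent in any given adult or cultured cell. Their promoters are textbook targets of Polycomb repressive complex 2, which trimethylates lysine 27 of histone H3 (H3K27me3) and helps to keep developmental genes off. JMJD3, also named KDM6B, and UTX remove this methylation. KLF4 is a zinc finger transcription factor and 1 of the reprogramming factors OSKM (OCT4, SOX2, KLF4 and c-MYC), which turn fibroblasts into induced pluripotent stem cells.

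The study used chromatin immunoprecipitation with sequencing (ChIP-seq) in mouse embryonic fibroblasts (MEFs) before and during OSKM reprogramming. H3K27me3 was profiled in untreated WT and Jmjd3-/- (KO) MEFs and, at day 5 and day 10 after OSKM, in WT and KO cells that also received an empty FLAG vector (FLAG) or a JMJD3 vector (JMJD3), which gave 10 peak lists. Per the labels, the medium of the reprogramming cells contained vitamin C, a cofactor of JMJD3 and related demethylases, so every comparison among reprogramming cells was made in its presence and untreated MEFs differ from them in this too. KLF4 was profiled at day 5 in FLAG and JMJD3 cells of the WT genotype, and FLAG-tagged JMJD3 was profiled at day 5 in WT cells with OSKM or with OSlowKM, in which less KLF4 virus was used. Each group was 1 library, so no difference below has a replicate check, no p-value was computed, and intervals are 95% Wilson intervals that cover counting error only. The WT strain label was C57BL/6J-OG2, a line that carries an Oct4-GFP reporter, and the KO label was C57Bl6J, so genotype and strain cannot be told apart. The KO came from conventional knockout mice; a peak list measures no expression, so the loss of Jmjd3 was not checked here. The labels call the OSKM delivery lentiviral while the study's methods describe retroviral vectors, and the cells were mixed populations in which only some reprogram.

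The H3K27me3 lists held 3045 to 6954 peaks of 1000 bp each, the KLF4 lists 10655 (FLAG) and 14391 (JMJD3) peaks, and the JMJD3 lists 14067 (OSKM) and 2284 (OSlowKM) positions of 1 bp. Read depth is not part of the lists and was not used here. Of 10 fibroblast marker genes such as Col1a1 and Thy1, 1 was marked in WT MEFs and 0 in KO MEFs, and 0 to 4 in the reprogramming lists, with 4 in D10 KO JMJD3. All 3 neural markers (Sox1, Neurog1 and Olig2) were marked in every list, and 0 of 10 housekeeping genes and 0 of 2 blood markers (Ptprc and Spi1) in any. Epithelial markers were marked at 0 to 3 of 4, endothelial markers at 0 to 2 of 3 and pluripotency markers at 0 to 2 of 4. A gene is called marked where the edge of an H3K27me3 peak lies at most 5 kb from a transcription start site (TSS), and lost where it is marked in the first list of a comparison and not in the second.

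Sequences below show what the chromatin values refer to. The first set comes from H3K27me3 peaks, with each CpG dinucleotide in capitals, because mammalian Polycomb targets are usually rich in CpG. Dlx4 and Emx1 had the best score ranks in the data and each had a peak of the D5 WT FLAG list that was overlapped in all 10 lists; Emx2 was the member that lost its peak with JMJD3 at day 5 in WT cells. Each run is 200 bases of the GRCm38 genome (mm10), on the gene's strand, 5′ to 3′, and avoids UTRs. The Dlx4 stretch (chr11:95150489-95150688, minus strand) lies 4226 bp upstream of the Dlx4 TSS inside the antisense gene Dlx4os, the Emx1 stretch (chr6:85187238-85187437, plus strand) ends 1 bp before the Emx1 TSS, and the Emx2 stretch (chr19:59461127-59461326, plus strand) lies in an intron of Emx2, 2954 bp from its TSS when measured from the 3′ end.
Dlx4: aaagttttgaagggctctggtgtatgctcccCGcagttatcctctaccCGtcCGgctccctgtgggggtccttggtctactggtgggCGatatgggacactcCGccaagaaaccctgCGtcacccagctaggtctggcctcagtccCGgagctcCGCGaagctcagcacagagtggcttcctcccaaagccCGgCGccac
Emx1: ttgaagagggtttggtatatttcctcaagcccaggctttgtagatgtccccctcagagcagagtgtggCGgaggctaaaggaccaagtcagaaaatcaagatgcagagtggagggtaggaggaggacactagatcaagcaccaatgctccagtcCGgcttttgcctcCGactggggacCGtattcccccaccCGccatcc
Emx2: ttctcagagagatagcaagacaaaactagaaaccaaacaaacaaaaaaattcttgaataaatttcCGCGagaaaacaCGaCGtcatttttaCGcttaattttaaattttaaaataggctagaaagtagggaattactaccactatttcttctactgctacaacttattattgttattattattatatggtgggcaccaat

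The Dlx4 stretch held 11 CpG dinucleotides at 62% GC, the Emx1 stretch 5 at 54.5% GC and the Emx2 stretch 5 at 30% GC. Peaks of all 10 lists overlapped the stretches of Dlx4 and Emx1. Peaks of 4 lists (D5 WT FLAG, D5 KO JMJD3, D10 WT FLAG and D10 KO JMJD3) overlapped the stretch of Emx2. An overlap here may be partial.

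The second set shows promoters from RefSeq (GRCm38.p6), as the bases before the listed start, 5′ to 3′ on the gene's strand. Lhx3 and Nkx6-2 were the best-ranked members with a promoter entry that overlapped no UTR, and Six4, chosen after its values were seen, was the member marked in the fewest lists. The table held an entry for 35 of 48 members, without Pax3, Pax4, Dlx3, Dlx4, Dlx5, Dlx6, Irx1, Irx5, Irx6, Lhx5, En2, Otx1 and Cdx1. Lhx3 (chr2:26206576-26206825, minus strand) and Nkx6-2 (chr7:139582798-139583047, minus strand) are shown at 250 bases, and Six4 (chr12:73113457-73113675, minus strand) at 219 bases.
Lhx3: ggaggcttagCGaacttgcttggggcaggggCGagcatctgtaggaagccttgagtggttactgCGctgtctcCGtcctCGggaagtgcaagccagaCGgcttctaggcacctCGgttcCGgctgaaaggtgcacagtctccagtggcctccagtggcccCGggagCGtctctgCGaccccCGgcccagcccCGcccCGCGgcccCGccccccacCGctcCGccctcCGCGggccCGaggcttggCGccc
Nkx6-2: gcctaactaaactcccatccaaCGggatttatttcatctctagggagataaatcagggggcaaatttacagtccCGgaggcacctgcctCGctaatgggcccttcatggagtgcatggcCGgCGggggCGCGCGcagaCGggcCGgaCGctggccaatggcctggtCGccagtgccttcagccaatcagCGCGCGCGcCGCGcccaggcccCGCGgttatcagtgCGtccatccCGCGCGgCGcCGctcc
Six4: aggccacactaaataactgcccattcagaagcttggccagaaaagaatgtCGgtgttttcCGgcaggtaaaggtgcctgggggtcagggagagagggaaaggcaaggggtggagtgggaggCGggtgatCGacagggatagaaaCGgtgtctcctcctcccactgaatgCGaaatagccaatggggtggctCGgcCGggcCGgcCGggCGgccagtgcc

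These runs held 22, 26 and 11 CpG dinucleotides. H3K27me3 peaks overlapped the Lhx3 promoter in 9 lists (in KO MEFs none did), over the Nkx6-2 promoter in 5 lists and over the Six4 promoter in 0 lists. The median over the 250 bases of all members with an entry, counting each listed start, was 14.5, against 6 for all 32851 listed promoters. Over 500 bp on each side of the first TSS, the median observed to expected CpG ratio was 0.686 for the 48 members and 0.571 for protein-coding genes, and 85.4% of members against 47.5% of protein-coding genes reached 0.6. The 25 members marked in all 10 lists had a median of 0.685 (range 0.221 to 0.983) and the 7 marked in 7 lists or fewer 0.755 (0.0517 to 0.917), so the ranges overlapped. The ratio was 0.295 at the first TSS of Lhx3, 0.983 at that of Nkx6-2 and 0.616 at that of Six4, and Pax4 had the lowest, 0.0517. The printed Lhx3 run precedes another start, inside the gene, and overlaps an annotated exon.

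H3K27me3 was found at most of the 48 genes in every list. The number of members marked was 45 in WT MEFs, 42 in KO MEFs, 47 in D5 WT FLAG, 46 in D5 WT JMJD3, 42 in D5 KO FLAG, 46 in D5 KO JMJD3, 40 in D10 WT FLAG, 36 in D10 WT JMJD3, 38 in D10 KO FLAG and 45 in D10 KO JMJD3. As a background, the share of all protein-coding genes marked was, in the same order, 14.6, 10.3, 14.7, 11, 13.7, 13, 12.1, 8.26, 12.8 and 11.7%. The members' share thus ran from 75% (95% interval 61.2 to 85.1) in D10 WT JMJD3 to 97.9% (89.1 to 99.6) in D5 WT FLAG. Hox cluster genes, taken as 39 genes, lay in the same range at 29 to 39 marked, and a list of 42 other homeobox genes at 29 to 38 marked, and the intervals of the 3 sets overlapped in every list.

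**Figure D1:**
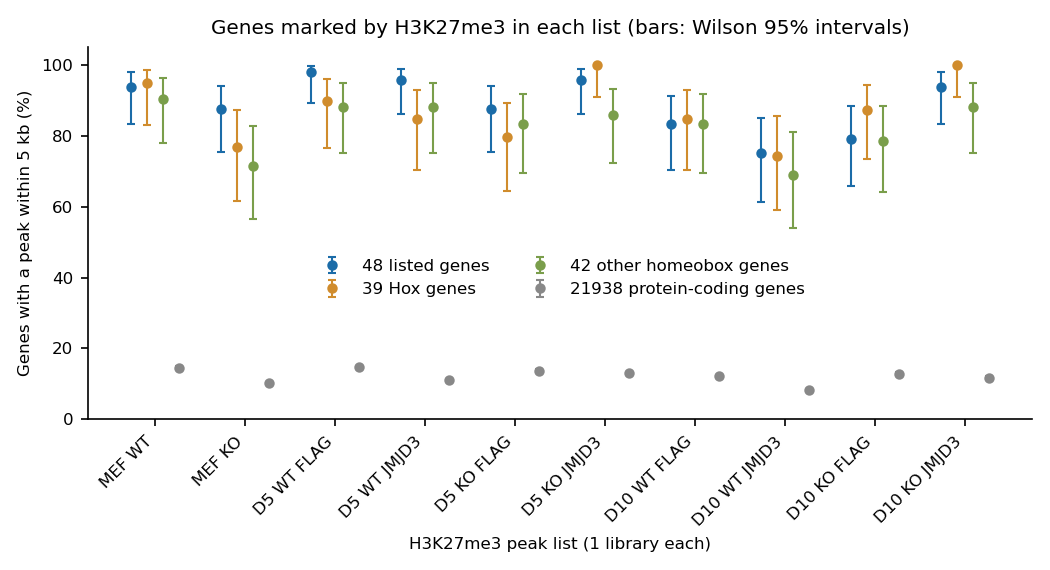
Share of genes that H3K27me3 marked (a peak at most 5 kb from a TSS; vertical axis, percent) in each of the 10 lists, 1 library each, for the 48 listed genes, 39 Hox genes, 42 other homeobox genes and 21938 protein-coding genes. Points are shares and bars are Wilson 95% intervals; the 3 homeobox sets lie between 69 and 100% in every list and all protein-coding genes between 8.26 and 14.7%.

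In all 10 lists, 25 of the 48 members were marked, which is 52.1% against 4.68% of protein-coding genes, 38.5% of Hox genes and 50% of the other homeobox genes. These were Pax1, Pax2, Pax5, Pax7, Pax8, Dlx4, Dlx5, Irx6, Lhx2, Lhx3, Lhx4, Lhx5, Lhx9, Six2, Six3, Six6, Nkx2-1, Nkx2-2, Nkx2-5, Nkx3-2, Nkx6-1, Nkx6-2, Emx1, Otx2 and Cdx1. No member was unmarked in all lists, whereas 77.6% of protein-coding genes were. A further 12 members were marked in 9 lists (Pax6, Pax9, Dlx3, Dlx6, Irx4, Lhx1, Lhx6, Lhx8, Nkx2-3, En2, Otx1 and Cdx2) and 4 in 8 lists (Pax3, Dlx1, Dlx2 and Irx3). The remaining 7 were Irx5 and En1 in 7 lists, Pax4, Irx1 and Irx2 in 6, Emx2 in 4 and Six4 in 1.

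The same interval was kept less often than the gene. Of the 86 D5 WT FLAG peaks near members, 12 (14%, 95% interval 8.17 to 22.8) were overlapped by a peak in all 10 lists, against 1070 of the 6428 peaks of the whole list (16.6%). The 12 peaks lay at 11 genes: Pax2 (2 peaks), Pax5, Pax8, Dlx4, Six6, Nkx2-1, Nkx3-2, Nkx6-2, Emx1, Otx2 and Cdx1. At the other 14 genes marked in all lists, no single D5 WT FLAG peak was overlapped in every list, and the call rested on different intervals within 5 kb. Members often had several peaks: 16 to 30 of the marked members had 2 or more within 5 kb, which was 44.4 to 66.7% of them against 10.1 to 14.9% of marked protein-coding genes. A gene with several peaks can lose one and stay marked, so values by peak are given beside those by gene.

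The deposited score of each peak has an unstated scale, so each member's best peak within 5 kb was ranked within its list, from 0 to 100 (best). The median rank of the marked members ran from 65.2 (D10 KO FLAG) to 82.8 (D5 WT JMJD3), against 61 to 69.6 for marked protein-coding genes. In 9 lists the members' median was the higher, and in D10 KO FLAG it was 65.2 against 65.9. Members whose best peak ranked at 75 or higher in its list numbered 15 to 30, which was 38.1 to 65.2% of those marked against 33.5 to 42.1% of marked protein-coding genes, and the members' interval lay above the background in 5 lists and included it in the other 5. The best of several peaks ranks higher than a single one, and more members than other genes had several. Among genes with exactly 1 peak the members' median was the higher in 8 lists, and the share at 75 or higher was 35 to 63.2% against 31.8 to 39.5%, with the interval above the background in D5 KO JMJD3 alone.

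**Figure D2:**
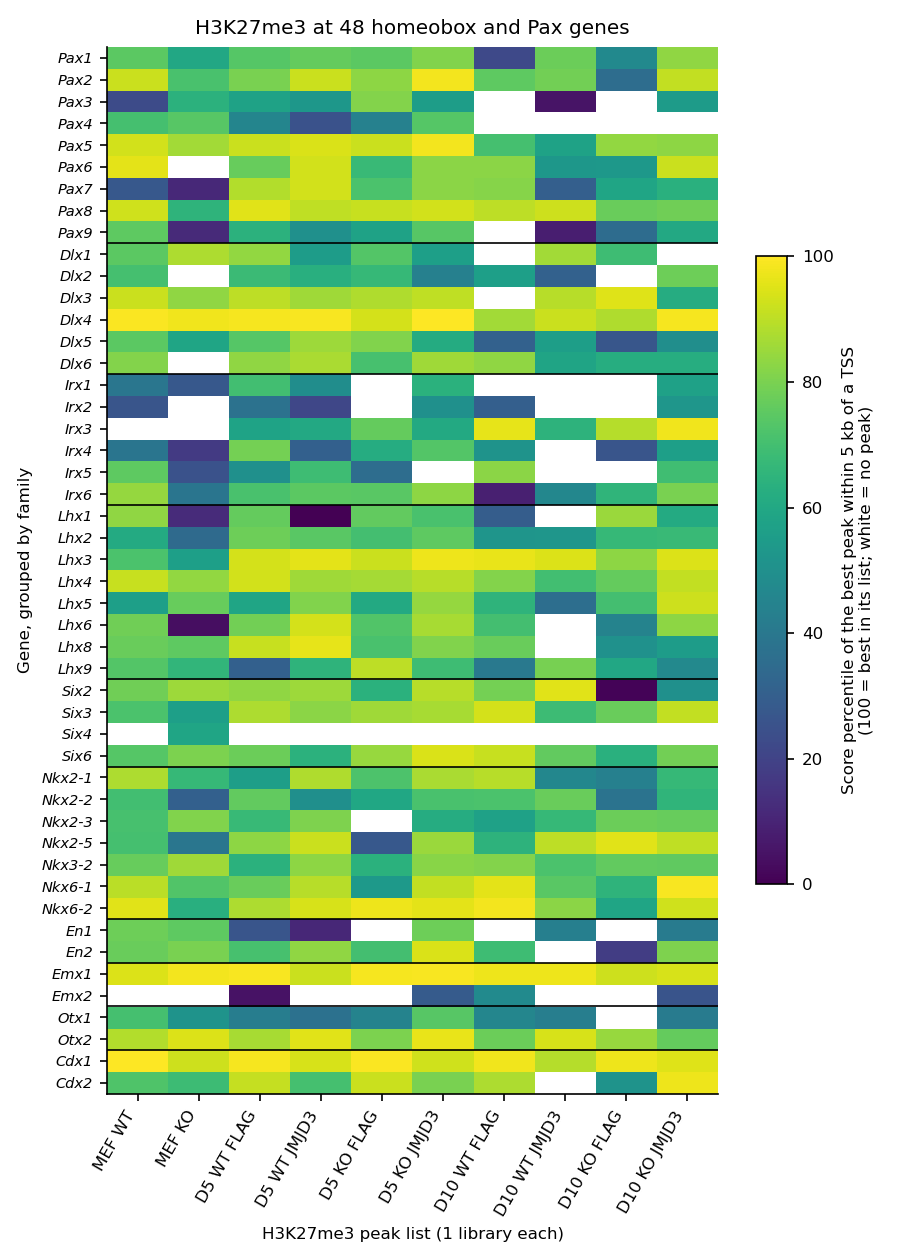
Score percentile of each gene's best H3K27me3 peak up to 5 kb from a TSS (colour, 100 is the best peak of its list, white means no peak) for each of 48 genes (rows, lines separate families) in each of 10 lists (columns, 1 library each). Emx1, Dlx4 and Cdx1 are bright in every column, Six4 is white in all columns but KO MEFs, and the Irx rows hold the most white cells of any family, 14 of 60.

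By family, the share of gene and list combinations that were marked was 98.6% for Nkx (69 of 70), 96.3% for Lhx (77 of 80), 95% for Otx and for Cdx (19 of 20 each) and 91.1% for Pax (82 of 90). It was 90% for Dlx (54 of 60), 80% for En (16 of 20), 77.5% for the sine oculis genes (31 of 40), 76.7% for Irx (46 of 60) and 70% for Emx (14 of 20). The 10 lists are not independent of each other and families hold 2 to 9 genes, so these shares are descriptions.

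Within the Nkx family, which patterns the thyroid, lung, heart, spleen, axial skeleton and ventral neural tube, 6 of 7 genes were marked in all 10 lists. Nkx6-2 had ranks from 58.6 to 98.3 with a median of 93.4, Nkx6-1 from 53.9 to 99.2 with a median of 83.3, and Nkx2-5, a heart factor, from 27.4 to 95.6 with a median of 84.2. Nkx2-1, which specifies thyroid and lung, had a median of 69.6, Nkx2-2 of 67.6 and Nkx3-2 of 76.3. Nkx2-3 was the 1 member of the family with a gap, in D5 KO FLAG.

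Lhx genes encode LIM-homeodomain proteins of neurons, pituitary, gonad and kidney. Lhx3, needed for the pituitary and motor neurons, ranked from 56.6 to 97.5 with a median of 94, and its relative Lhx4 from 69.6 to 93.1 with a median of 86.2. Lhx2 carried 2 to 5 peaks in every list and up to 9000 bp of peaks within 20 kb of its TSSs, the most of the 48 genes. Lhx5 reached 6 peaks in WT MEFs and had 1 in D10 WT JMJD3. The 3 gaps of the family, at Lhx1, Lhx6 and Lhx8, all fell in D10 WT JMJD3.

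Among the Pax genes, Pax2, Pax5 and Pax8 form 1 subgroup (kidney, B cells and thyroid) and were marked in all lists, with median ranks of 81.4, 89.1 and 90.9. Pax8 had exactly 1 peak in each list. Pax1, an axial skeleton gene, and Pax7, a muscle stem cell gene, were also marked in all lists, with ranks from 21.9 to 83.4 and from 11.5 to 93. Pax4, which acts in pancreatic endocrine cells and had the lowest promoter CpG ratio, was marked in both MEF lists and all 4 day 5 lists and in none of the 4 day 10 lists. Pax6, the eye and forebrain gene, was unmarked in KO MEFs, where the nearest peak was 8325 bp away, and marked in the other 9 lists.

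The Dlx genes, which pattern the jaws, limbs and forebrain, lie in 3 pairs (Dlx1 and Dlx2, Dlx3 and Dlx4, Dlx5 and Dlx6) spanning 18641 to 26144 bp, so members of a pair share their surroundings. Dlx4 ranked from 86.3 to 100 with a median of 98.2 and had 2 to 4 peaks in each list; its rank of 100 was in D5 KO JMJD3. Its neighbour Dlx3, a skin and tooth gene, ranked from 62 to 95 in 9 lists and had no peak in D10 WT FLAG. Dlx5 had 1 peak in each list, with ranks from 26.6 to 85.5. Dlx1 lacked a peak in D10 WT FLAG and D10 KO JMJD3, and Dlx2 in KO MEFs and D10 KO FLAG, where the nearest peaks were 5672 and 5072 bp away, just outside the 5 kb limit.

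Irx genes, which act in heart and neural patterning, held 14 unmarked combinations. Irx6 was marked in all 10 lists with a median rank of 72.9. Irx1 and Irx2 were each unmarked in 4 lists, Irx5 in 3, Irx3 in 2 and Irx4 in 1. Irx3 was unmarked in both MEF lists and marked in all 8 reprogramming lists, with ranks from 57.9 to 97.8; in WT MEFs its nearest peak was 5074 bp away, so that gap rests on the limit, and in KO MEFs it was 143697 bp away.

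In the smaller families, 1 member was often marked throughout and its relative was not. Emx1, a cortex gene, ranked from 91.9 to 99.1 with a median of 97.4, while Emx2, its relative, was marked in 4 lists with ranks of 4.88, 28.9, 48 and 25.9 in D5 WT FLAG, D5 KO JMJD3, D10 WT FLAG and D10 KO JMJD3. Otx2, a forebrain gene that is also active in primed pluripotent cells, ranked from 76.4 to 96.7, and Otx1 lacked a peak in D10 KO FLAG. Cdx1, a gut and axis gene, had exactly 1 peak in each list, over its TSS, with ranks from 88.7 to 99.6, and Cdx2, the trophectoderm gene, lacked a peak in D10 WT JMJD3. Of the sine oculis genes, Six2, Six3 and Six6 were marked in all lists, with Six2 ranging from 0.893 to 95.6, while Six4 was marked in KO MEFs alone, at rank 58.9, and had its nearest peak 62127 to 73090 bp away in the other 9 lists. En1 was unmarked in D5 KO FLAG, D10 WT FLAG and D10 KO FLAG, and En2 in D10 WT JMJD3; both pattern the midbrain and hindbrain.

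The question of the FLAG and JMJD3 pairs is whether genes marked with the empty vector lack the mark with JMJD3. At day 5 in WT cells 1 of 47 FLAG-marked members was lost, Emx2 (2.13%, 95% interval 0.377 to 11.1), against 31.8% of all FLAG-marked protein-coding genes. In KO cells at day 5, 1 of 42 was lost, Irx5 (2.38%, 0.422 to 12.3), against 20.5%. At day 10 in WT cells 9 of 40 were lost (22.5%, 12.3 to 37.5), against 41.3%, and at day 10 in KO cells 1 of 38, Dlx1 (2.63%, 0.466 to 13.5), against 25.1%. At 5 kb the members' interval lay below the background share in all 4 pairs. At 1 kb the members' shares were 14.8% (5.92 to 32.5), 4.17% (0.739 to 20.2), 31.8% (16.4 to 52.7) and 23.1% (11 to 42.1) in the same order, against 35.2, 21.6, 44.9 and 26.9%, so the interval included the background in both day 10 pairs. It also included the background at day 10 in WT cells with lists of equal length (20.6%, 10.3 to 36.8, against 31.2%) and with the better-scoring 50% of each list (31.2%, 18 to 48.6, against 47.3%), and lay below it in the other 3 pairs under both settings. At 10 kb the members' shares were 2.13, 0, 12.2 and 0%, against 32.1, 21, 42 and 26.2%, with all 4 intervals below the background.

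Intervals of the other 2 sets of homeobox genes overlapped those of the members in every pair. Of the other homeobox genes marked with FLAG, 1 of 37 (2.7%), 0 of 35, 7 of 35 (20%) and 0 of 33 were lost in the same 4 pairs. Of the Hox genes, 6 of 35 (17.1%), 0 of 31, 8 of 33 (24.2%) and 0 of 34 were lost. In all 3 sets the largest share was that of day 10 in WT cells.

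Emx2 ranked 4.88 in D5 WT FLAG, near the bottom of its list, and the nearest peak in D5 WT JMJD3 was 177847 bp from its TSS. Irx5 ranked 35.7 in D5 KO FLAG and had its nearest peak at 8078 bp in D5 KO JMJD3. Dlx1 ranked 68.8 with 2 peaks in D10 KO FLAG and had its nearest peak at 6158 bp in D10 KO JMJD3. Emx2 was therefore the 1 of these 3 with no peak in its surroundings.

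The 9 members lost at day 10 in WT cells were Irx2, Irx4, Irx5, Lhx1, Lhx6, Lhx8, En2, Emx2 and Cdx2. Their FLAG ranks were 30.5, 51.4, 82.7, 29.4, 70, 77, 69, 48 and 87.8, in that order. In D10 WT JMJD3 the nearest peak lay between 5 and 10 kb away for 4 of them, at 6240 bp (Lhx1), 6472 bp (En2), 6283 bp (Emx2) and 5598 bp (Cdx2), and at 10075 bp for Irx4. For the other 4 it was distant, at 641752 bp (Irx2), 102864 bp (Irx5), 92275 bp (Lhx6) and 355480 bp (Lhx8). Irx4, Lhx1, Lhx6, Lhx8, En2 and Cdx2 were each marked in all 9 other lists, so the D10 WT JMJD3 list, with 3045 peaks the shortest of the 10, was their single gap.

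Members without a peak with FLAG often had one with JMJD3. At day 5 in WT cells the 1 unmarked member, Six4, stayed unmarked, where 1.12% of unmarked protein-coding genes gained a peak. In D5 KO cells 5 of 6 gained one (Irx1, Irx2, Nkx2-3, En1 and Emx2), against 2.48%. At day 10 in WT cells 5 of 8 gained one (Pax3, Pax9, Dlx1, Dlx3 and En1), against 1.3%, and at day 10 in KO cells 8 of 10 (Pax3, Dlx2, Irx1, Irx2, Irx5, En1, Emx2 and Otx1), against 2.42%. The other homeobox genes gained a peak at 1 of 5, 1 of 7, 1 of 7 and 4 of 9 genes in the 4 pairs, and the Hox genes at 4 of 4, 8 of 8, 4 of 6 and 5 of 5.

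Most protein-coding genes are never marked, so a closer background, chosen after the data were seen, is the set unmarked with FLAG and marked in at least 1 of the 8 lists outside the pair. In that set the share gained was 10.2% at day 5 in WT cells, where 0 of 1 member gained a peak (upper limit 79.3%), 20.3% at day 5 in KO cells, 9.93% at day 10 in WT cells and 18.4% at day 10 in KO cells. The members' shares were 83.3% (43.6 to 97), 62.5% (30.6 to 86.3) and 80% (49 to 94.3) in the last 3 pairs. This background asks for only 1 other list, so the shares depend on how often members were marked elsewhere. Nkx2-3, Pax9, Dlx3 and Otx1 were marked in 9 lists, with the FLAG list of the pair as their single gap. They counted as gained by construction, so the contrast does not show an effect of JMJD3. The 4 genes Irx1, Irx2, En1 and Emx2 gained a peak in both KO pairs. In D5 KO JMJD3 their ranks were 64, 50.4, 78 and 28.9, and in D10 KO JMJD3 57.3, 52.6, 41.5 and 25.9, and 78 was the highest of these 8 ranks. D10 KO JMJD3 was also the list with the most fibroblast markers marked, 4 of 10 against 2 with FLAG. The JMJD3 list was longer than its FLAG list at day 5 in KO cells, with 6539 against 5643 peaks. It was shorter at day 10 in WT cells (3045 against 5131) and in KO cells (4878 against 5376). The part of these differences in the gains was not tested.

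Loss counted by peak stood nearer to that of other protein-coding genes than loss counted by gene. A FLAG peak near a member had no overlapping JMJD3 peak for 22 of 86 at day 5 in WT cells (25.6%, 17.5 to 35.7), 17 of 76 at day 5 in KO cells (22.4%, 14.5 to 32.9), 40 of 75 at day 10 in WT cells (53.3%, 42.2 to 64.2) and 20 of 67 at day 10 in KO cells (29.9%, 20.2 to 41.7). Near other protein-coding genes the shares were 37, 24.3, 47.6 and 30.4%. The members' interval covered the value of the other genes in 3 pairs and lay below it at day 5 in WT cells. Over the whole FLAG lists, which include peaks far from genes, the shares were 46.4, 33.8, 59.6 and 44.4%, and the members' interval lay below these in 3 pairs and included the value at day 10 in WT cells. Among peaks in the better-scoring 50% of the FLAG list, the shares were 15, 18.2, 34.9 and 14.3% near members and 21, 10.4, 32.9 and 15.2% near other genes, and the members' interval covered the other value in all 4 pairs.

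Among the 47 members marked in D5 WT FLAG, 28 had every FLAG peak overlapped with JMJD3, 14 had some overlapped, 4 (Irx1, Nkx2-3, En1 and Cdx2) had none overlapped but another peak within 5 kb, and 1 had no peak. For day 5 in KO cells these numbers were 29, 10, 2 and 1 of 42. At day 10 they were 12, 14, 5 and 9 of 40 in WT cells and 22, 9, 6 and 1 of 38 in KO cells. This split was counted for members alone, and members had several peaks more often than other marked genes. It therefore describes the members and does not set them apart from other genes. Members with a single FLAG peak were lost at 4.76% (1 of 21), 5.56% (1 of 18), 22.2% (4 of 18) and 0% (0 of 19) in the 4 pairs, against 34.5, 22, 43.5 and 26.8% of protein-coding genes with a single FLAG peak. With 18 to 21 such members a pair, the members' interval lay below the protein-coding share at day 5 in WT cells (0.846 to 22.7) and at day 10 in KO cells (0 to 16.8) and included it in the other 2 pairs. Of members with 2 or more FLAG peaks, 0 of 26, 0 of 24, 5 of 22 and 1 of 19 were lost in the 4 pairs. Protein-coding genes with 2 or more were lost at 12.1, 8.7, 24.4 and 12.6%, and the members' interval included the value in all 4 pairs.

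**Figure D3:**
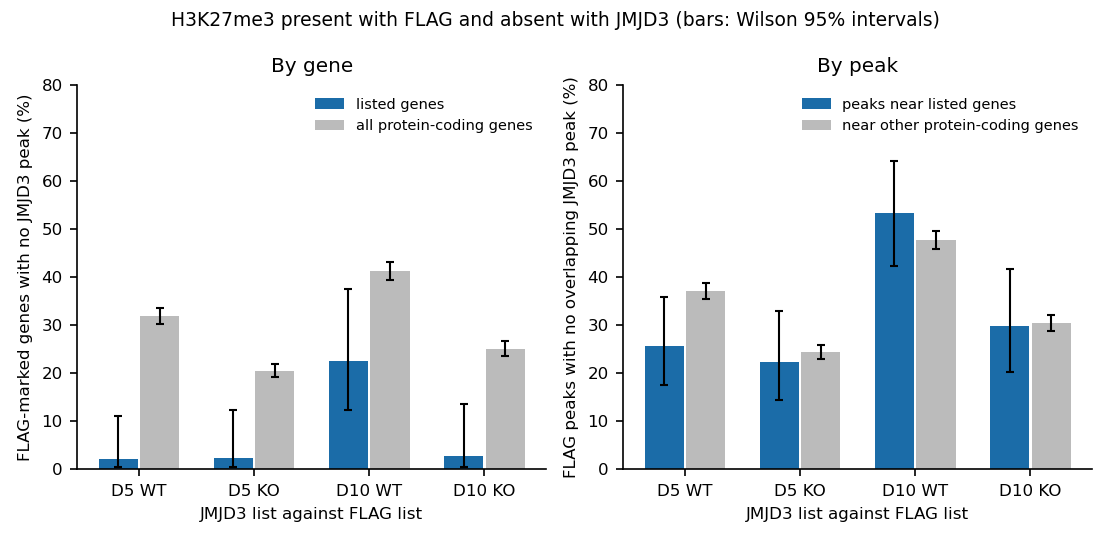
Share of H3K27me3 present with FLAG and absent with JMJD3 (vertical axes, percent) in 4 pairs of lists, by gene on the left (no JMJD3 peak within 5 kb) and by peak on the right (no overlapping JMJD3 peak), for the 48 listed genes (blue) and other protein-coding genes (grey; on the left they include the 48). Bars are shares and whiskers Wilson 95% intervals; by gene the members stand at 2.13, 2.38, 22.5 and 2.63% against 31.8, 20.5, 41.3 and 25.1%, and by peak at 25.6, 22.4, 53.3 and 29.9% against 37, 24.3, 47.6 and 30.4%.

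The number of distinct peaks near members went from 86 to 79 with JMJD3 at day 5 in WT cells (ratio 0.919, 95% Poisson interval 0.677 to 1.25), from 76 to 94 at day 5 in KO cells (1.24, 0.914 to 1.67), from 75 to 59 at day 10 in WT cells (0.787, 0.559 to 1.11) and from 67 to 84 at day 10 in KO cells (1.25, 0.909 to 1.73). Every interval included 1. The whole lists had ratios of 0.788, 1.16, 0.593 and 0.907. With all lists shortened to the length of the shortest by score, the members' ratios were 1.07, 1.2, 1.26 and 1.72, so the direction in the WT pairs turned and depended on list length. The number of members marked, which fell from 47 to 46 and from 40 to 36 in the WT pairs, was 40 in both lists at day 5 and went from 34 to 36 at day 10 with lists of equal length, where marked protein-coding genes went from 2140 to 1844 and from 1980 to 1813.

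Genotype was compared in MEFs and in FLAG cells at each day; the FLAG lists are the same ones as in the pairs above. In KO MEFs 4 of the 45 members marked in WT MEFs were lost (Pax6, Dlx2, Dlx6 and Irx2; 8.89%, 3.51 to 20.7), against 35.6% of protein-coding genes, and Six4 was marked in KO alone, 1 of 3 unmarked members against 1.01%. In D5 FLAG cells 5 of 47 were marked in WT and not in KO (Irx1, Irx2, Nkx2-3, En1 and Emx2; 10.6%), against 17.9%. In D10 FLAG cells 5 of 40 were (Dlx2, Irx2, Irx5, Emx2 and Otx1; 12.5%), against 18.4%. Irx2 was in all 3 sets. In the other direction, 0 of 1 member unmarked in WT was marked in KO at day 5 and 3 of 8 were at day 10 (Pax9, Dlx1 and Dlx3), against 1.83 and 3.29% of unmarked protein-coding genes. The interval of the members lay below the background in MEFs and included it at day 5 (4.63 to 22.6) and day 10 (5.46 to 26.1).

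Over time in WT cells, 0 of the 45 members marked in MEFs were lost in D5 FLAG cells (upper limit of the interval 7.87%), against 22.2% of protein-coding genes, and Irx3 and Emx2 were newly marked, 2 of 3 unmarked members against 3.93%. From D5 to D10 FLAG in WT cells 7 of 47 were lost (Pax3, Pax4, Pax9, Dlx1, Dlx3, Irx1 and En1; 14.9%, 7.41 to 27.7), against 28.5%. In KO cells 4 of 42 were lost from MEFs to D5 FLAG (Irx1, Six4, Nkx2-3 and En1; 9.52%, 3.77 to 22.1), against 15.2%, and 4 of the 6 unmarked in MEFs were newly marked (Pax6, Dlx2, Dlx6 and Irx3), against 5.51%. From D5 to D10 FLAG in KO cells 5 of 42 were lost (Pax3, Pax4, Dlx2, Irx5 and Otx1; 11.9%, 5.19 to 25), against 22.6%. Newly marked from D5 to D10 FLAG were 0 of 1 member in WT cells and 1 of 6 in KO cells (Nkx2-3), against 1.87 and 2.57% of protein-coding genes. Pax3, a neural crest and muscle gene, and Pax4 were lost at this step in both genotypes. Pax3 was marked again in both day 10 JMJD3 lists, at ranks of 5.29 in WT and 55 in KO cells.

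The share of members with a KLF4 or JMJD3 entry nearby was lower than that of protein-coding genes in all 4 lists, with intervals below the background in all but OSlowKM. Within 50 kb of a TSS, 19 of 48 members had a KLF4 peak in FLAG cells (39.6%, 27 to 53.7) against 53.9% of protein-coding genes, and 19 in JMJD3 cells (39.6%) against 62.2%. A JMJD3 position lay within 50 kb of 12 members with OSKM (25%, 14.9 to 38.8) against 48.9%, and of 2 with OSlowKM (4.17%, 1.15 to 14) against 11.2%. A KLF4 peak and a JMJD3 position within 400 bp of each other lay near 6 members (12.5%, 5.86 to 24.7) against 28.4%. For the 42 other homeobox genes the shares were 40.5% and 57.1% (KLF4 with FLAG and with JMJD3), 42.9% and 14.3% (JMJD3 with OSKM and with OSlowKM) and 16.7% (both within 400 bp). Hox genes stood above the members in 3 lists, with KLF4 near 27 (FLAG) and 33 (JMJD3) of 39 and JMJD3 near 27 (OSKM) and 0 (OSlowKM). Entries of both within 400 bp of each other lay near 11 of the 39 Hox genes (28.2%). The Hox genes lie in 4 clusters and share entries, however.

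**Figure D4:**
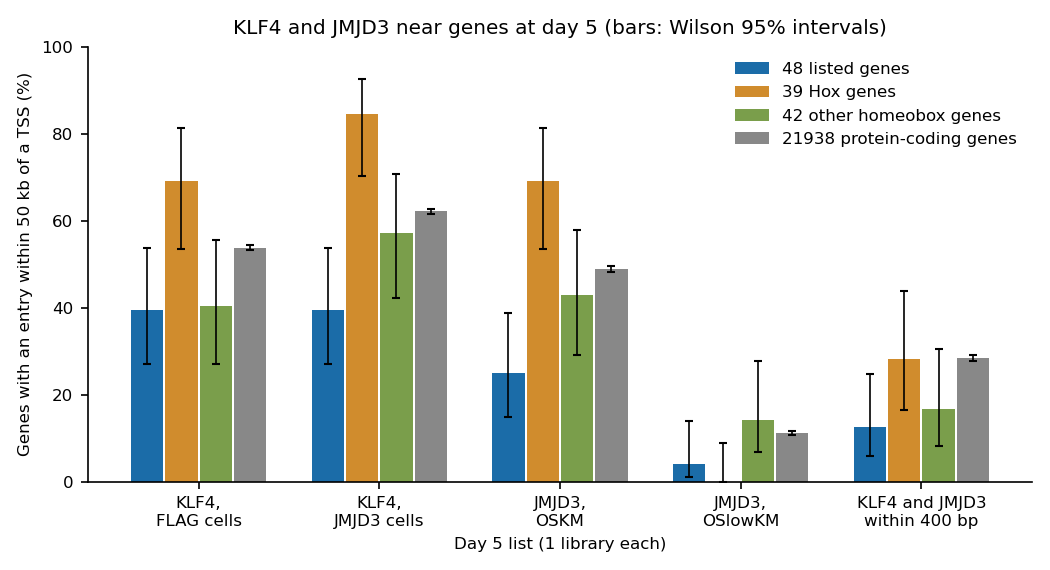
Share of genes with an entry within 50 kb of a TSS (vertical axis, percent) in the 2 KLF4 lists, the 2 JMJD3 lists and the set of KLF4 and JMJD3 entries within 400 bp of each other, all at day 5, for the 48 listed genes, 39 Hox genes, 42 other homeobox genes and 21938 protein-coding genes. Bars are shares and whiskers Wilson 95% intervals; the listed genes stand at 39.6, 39.6, 25, 4.17 and 12.5% and protein-coding genes at 53.9, 62.2, 48.9, 11.2 and 28.4%.

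Nearer to the TSS, within 5 kb, 7 members had a KLF4 peak in FLAG cells (14.6%) against 28% of protein-coding genes, and 7 in JMJD3 cells against 37.1%. JMJD3 positions lay within 5 kb of 5 members with OSKM (10.4%), against 21%, and of 1 with OSlowKM (2.08%), against 3.66%. Entries of KLF4 and JMJD3 within 400 bp of each other lay within 5 kb of 2 members (4.17%), against 11.9%.

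KLF4 lay near the TSS of Irx2, Irx5, Dlx2, Nkx2-3 and Nkx6-1 in both lists. At Irx2 the nearest edge was 41 bp from the TSS with FLAG and 88 bp with JMJD3, at Nkx6-1 276 and 308 bp, at Irx5 1236 and 1286 bp, at Dlx2 3483 and 3502 bp, and at Nkx2-3 0 and 3962 bp. In FLAG cells alone a peak lay 62 bp from Six2 and 3835 bp from Lhx2. In JMJD3 cells alone a peak lay 311 bp from Lhx4 and 2614 bp from Dlx4. Both of these peaks overlapped H3K27me3 peaks, in 7 lists at Lhx4 and in 6 lists at Dlx4, and in neither case in the H3K27me3 list of the same cells (D5 WT JMJD3).

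JMJD3 with OSKM lay within 5 kb of Irx2 (2 positions, the nearer 540 bp from the TSS), Irx5 (818 bp), Dlx2 (3655 bp), Nkx2-3 (4270 bp) and Pax5 (4568 bp). Pax5, a B cell gene, had 5 positions within 50 kb, the most of any member. The 1 position of OSlowKM near a TSS fell on a TSS of Lhx3, where the nearest OSKM position was 58782 bp away. Of the 18 distinct OSKM positions within 50 kb of members, 1 (5.56%) had an OSlowKM position within 400 bp, near Pax5, against 12.9% in the whole list.

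Of the entries within 50 kb of members, 4 of 21 KLF4 peaks in FLAG cells overlapped an H3K27me3 peak of any list (19%, 95% interval 7.67 to 40), against 3.06% of the whole KLF4 list. In JMJD3 cells 8 of 24 KLF4 peaks did (33.3%, 18 to 53.3), against 4%. Of the JMJD3 positions, 3 of 18 did with OSKM (16.7%, 5.84 to 39.2), against 1.16%, and 0 of 2 with OSlowKM, against 0.963%. Most of these overlaps were with lists of other cells. In the H3K27me3 list of the same day, genotype and vector, 2 of 21 KLF4 peaks of FLAG cells had an overlap (9.52%, 2.65 to 28.9, against 1.46% of the whole list). In the D5 WT JMJD3 list, 0 of 24 KLF4 peaks of JMJD3 cells (upper limit 13.8%, against 0.841%) and 0 of 18 JMJD3 positions (upper limit 17.6%, against 0.121%) had one. Of the KLF4 peaks near members, 15 of the 21 in FLAG cells had a counterpart within 400 bp in JMJD3 cells (71.4%, against 84.8% in the whole list) and 15 of the 24 in JMJD3 cells had one in FLAG cells (62.5%, against 62.6%). At day 5 in WT cells, 0 of 18 FLAG-marked members with a KLF4 peak within 50 kb were lost and 1 of 29 without one. These numbers were the same for each KLF4 list taken alone, though the lists name different genes. For JMJD3 positions with OSKM, 0 of 12 marked members with one were lost and 1 of 35 without. The 1 lost gene, Emx2, had no entry of these lists within 50 kb. With 1 gene lost, no difference by binding can be read from these counts, and shares over protein-coding genes are not given here. The gene lost at day 5 in KO cells was Irx5, which had KLF4 and JMJD3 entries within 5 kb in WT cells.

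The sites where KLF4 (JMJD3 cells) and JMJD3 (OSKM) fell within 400 bp of each other are shown because entries of both lists lay this close together near a member; the lists come from separate libraries, and binding of both factors to 1 site was not measured. Each run is 200 bases of the GRCm38 genome around the JMJD3 position, plus strand, with matches to a SOX (CNTTGT) or AP-1 (TGANTCA) string on either strand in capitals; KLF (GGGNGTGG) and OCT (ATGCNAAT) strings were searched on both strands and had no match in these windows. The site near Dlx2 (chr2:71543000-71543199) lies between Dlx1 and Dlx2 and is the same site for both, the site near Nkx2-3 (chr19:43616496-43616695) lies downstream of the gene, and the site near Irx6 (chr8:92628832-92629031) lies 45357 bp upstream of it; all 3 are outside annotated genes. The sites near Lhx6 and En2 lay in UTRs of other genes (Mrrf and Rbm18, and Cnpy1) and are not shown.
Dlx2: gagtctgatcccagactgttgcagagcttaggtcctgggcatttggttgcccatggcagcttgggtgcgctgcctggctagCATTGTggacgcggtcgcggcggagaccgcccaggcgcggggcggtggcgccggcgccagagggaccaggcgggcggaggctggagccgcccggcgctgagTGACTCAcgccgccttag
Nkx2-3: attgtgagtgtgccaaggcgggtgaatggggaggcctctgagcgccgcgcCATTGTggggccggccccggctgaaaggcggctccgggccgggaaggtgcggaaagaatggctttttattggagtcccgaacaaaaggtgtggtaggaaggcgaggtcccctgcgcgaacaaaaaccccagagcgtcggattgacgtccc
Irx6: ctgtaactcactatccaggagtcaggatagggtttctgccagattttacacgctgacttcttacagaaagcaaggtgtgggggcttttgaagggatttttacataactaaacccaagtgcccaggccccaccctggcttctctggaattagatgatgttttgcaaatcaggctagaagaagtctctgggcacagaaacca

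The Dlx2 window held 1 SOX and 1 AP-1 string at 70.5% GC, the Nkx2-3 window 1 SOX string at 62.5% GC and the Irx6 window none of the 4 strings at 46.5% GC. In 200-base windows around all 18 OSKM JMJD3 positions near members, 61.1% held the SOX string, 5.56% the KLF string, 5.56% the OCT string and 5.56% the AP-1 string, against 50.4, 14.6, 6.75 and 11.4% of the 14067 windows of the whole list. Around the KLF4 peak midpoints near members the KLF string was in 47.6% of 21 windows (FLAG) and 33.3% of 24 (JMJD3), against 35.5 and 33.6% of the whole lists. JMJD3 windows, near members and in the whole list, thus held the SOX string more often than the KLF string. The SOX string has 5 fixed letters and the KLF string 7, so they differ in how often they occur by chance.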

How the data were processed

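H3K27me3 peaks of 10 libraries, KLF4 peaks of 2 and positions of FLAG-tagged JMJD3 of 2 were analysed, with 1 library per group; 6 samples (4 inputs and 2 H3K27ac) were not used here. The authors aligned reads with bowtie2 (version 2.2.0 in the submitters' processing notes) to mm10, and called peaks per library with DFilter (H3K27me3) or MACS2 (KLF4, JMJD3). Drosophila spike-in reads normalised H3K27me3, but whether they entered the peak calls is not given in the sources used here. The deposited H3K27me3 score has no stated scale and was used as a percentile within its list; ties counted at or below. KLF4 and JMJD3 lists had no score. Deeper sequencing can lengthen a list; read numbers were not used here.

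Distances ran from the nearest peak edge to TSSs of GENCODE M21 basic transcripts (GRCm38, the build of mm10): 5 kb for H3K27me3, 50 kb for KLF4 and JMJD3, 400 bp for merging both. All 48 listed genes were named, with values in every list summarised for those marked in all lists, lost or gained with JMJD3, or bound near a TSS. The members and lists were chosen with earlier results of these data known. Alternatives covered distances, the better-scoring 50%, list lengths and TSS sets. Overlaps used numpy 2.4.6 under Python 3.11.15, intervals scipy 1.17.1, figures matplotlib 3.10.9 and sequences samtools 1.23.1 with pysam 0.24.0. On simulated peaks 200 of 200 placed genes were recovered, and bedtools 2.31.1 gave the same 3230 marked genes in D5 WT FLAG.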

Additional observations from a re-analysis of the deposited data

Results flagged for a closer look

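JMJD3 and FLAG lists differed in opposite directions in WT and KO cells at the listed genes. At day 5 the number of members marked changed by -1 in WT cells and by 4 in KO cells, and at day 10 by -4 in WT cells and by 7 in KO cells. The ratio of distinct peaks near members, JMJD3 to FLAG, was 0.919 (WT) and 1.24 (KO) at day 5, and 0.787 (WT) and 1.25 (KO) at day 10. Every 95% interval of these ratios included 1. The whole lists had ratios of 0.788 (WT) and 1.16 (KO) at day 5, and 0.593 (WT) and 0.907 (KO) at day 10. Among all protein-coding genes the number marked fell in all 4 pairs, from 3230 to 2412 (D5 WT), from 2996 to 2852 (D5 KO), from 2660 to 1813 (D10 WT) and from 2806 to 2566 (D10 KO). Hox genes marked went from 35 to 33, 31 to 39, 33 to 29 and 34 to 39 in the same order. Other homeobox genes marked went from 37 to 37, 35 to 36, 35 to 29 and 33 to 37. The opposite directions were therefore also seen in Hox genes at both days and in the other homeobox genes at day 10. With lists of equal length the members marked were 40 and 40 at day 5 and 34 and 36 at day 10 in WT cells (FLAG and JMJD3), where protein-coding genes marked were 2140 and 1844, and 1980 and 1813. At 1 kb they were 22 and 22 at day 10 in WT cells, against 2111 and 1366 protein-coding genes. The differences between genotypes were not tested, since each group had 1 library, and the direction of both WT ratios turned with lists of equal length.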

How the results depend on the processing

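Of 169 alternative settings over all results, 141 gave the same result (a count within 1.5 times the main count, a share or ratio within the 95% interval of the main value), 26 moved and 2 reversed. Those intervals are wide: within them, the share lost was 9.76% (better-scoring 50% of peaks), 5% (equal length) and 4.35% (peak midpoint) at day 5 in WT cells, 4.17% (1 kb) at day 5 in KO cells and 7.14% (better-scoring 50%) at day 10 in KO cells, each over 1.5 times its main value. Protein-coding shares at these settings were 33% (better-scoring 50%) and 25.7% (equal length) at day 5 in WT cells. They were 21.6% at day 5 and 27.4% at day 10 in KO cells, and none is given for the peak midpoint. Both reversals came with all lists at the length of the shortest, where the ratio of peaks near members was 1.07 at day 5 and 1.26 at day 10 in WT cells. With 1 kb in place of 5 kb, members marked were 24 (MEF WT), 17 (MEF KO), 27 (D5 WT FLAG), 26 (D5 WT JMJD3), 24 (D5 KO FLAG), 30 (D5 KO JMJD3), 22 (D10 WT FLAG) and 22 (D10 WT JMJD3), against 9.73, 6.82, 11.8, 8.39, 10.8, 10.1, 9.62 and 6.23% of protein-coding genes in the same order, and the share lost was 14.8% at day 5 in WT and 23.1% at day 10 in KO cells. With 10 kb it was 0% at day 5 in KO cells, 12.2% at day 10 in WT and 0% at day 10 in KO cells, against 21, 42 and 26.2% of protein-coding genes, and at day 10 in KO cells it was also 0% with TSSs of all transcripts. For KLF4 in FLAG cells, members were 8 at 10 kb and 10 with the wider 50% of peaks. For KLF4 in JMJD3 cells they were 10 at 10 kb, 30 at 100 kb and 12 with the wider 50%. For JMJD3 they were 6 at 10 kb and 26 at 100 kb with OSKM, and 1 and 5 with OSlowKM. For merged sites they were 2 at 10 kb, 15 at 100 kb and 2 with the wider 50% of KLF4 peaks. Shares of protein-coding genes at these settings of the KLF4, JMJD3 and merged entries are not given here. These counts therefore do not show whether members stayed below the background. A smaller distance admits fewer peaks by construction; for the other settings the cause was not tested.

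Alternatives chosen after seeing the data gave 25.6, 22.4, 53.3 and 29.9% lost when peaks were counted in place of genes (D5 WT, D5 KO, D10 WT, D10 KO). Members whose best FLAG peak was in the better-scoring 50% were lost at 0, 0, 18.8 and 3.57% in these pairs, against 16.4, 7.7, 27.9 and 12.5% of protein-coding genes, and the members' interval included the background in 3 pairs, at day 5 in KO cells (0 to 9.18) and at day 10 in WT (8.89 to 35.3) and KO cells (0.633 to 17.7); members with 1 FLAG peak were lost at 0% at day 10 in KO cells. No replicate block could be fitted, since each group had 1 library; a fit over the 4 FLAG and JMJD3 pairs, with genotypes and days standing in for replicates, was not run. Read depth was not used here, so a gene with no peak in a list may still carry the mark.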
